A study of Mus musculus with 3 samples.

Results

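The nuclear pore is the channel through which proteins and RNAs pass between nucleus and cytoplasm, and 57 genes of the pore and of the transport machinery were followed here in mouse embryonic stem (ES) cells against mouse embryonic fibroblasts (MEF). The genes were taken by the name printed on the array: numbered nucleoporins (Nup), importins alpha (Kpna), Kpnb1, importins (Ipo), exportins (Xpo), transportins (Tnpo) and Ran-binding proteins (Ranbp), together with Ran, Rcc1, Rangap1, Tpr, Rae1, Aaas, Seh1l and Cse1l. They make up 57 of the 27962 gene names on the array and 57 of the 19681 genes that could be tested. Sec13, the other named gene of the rule, is not a gene name on the array, and Ranbp5 is the older name of importin 5.

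RNA was hybridised to 3 Agilent mouse arrays with 2 colours. Each array carried 1 ES cell replicate labelled with Cy3, from untreated cells grown in serum medium with leukemia inhibitory factor, the cytokine used to keep mouse ES cells undifferentiated, and MEF RNA labelled with Cy5, from fibroblasts grown in serum medium. Strain, passage, genotype and the name of the ES cell line are not stated in the labels, and nothing says that the ES cell replicates were separate cultures. The p-values therefore measure the spread between 3 arrays, which may be technical, and the MEF RNA counts as 1 control whose own spread does not enter. Dyes were not swapped, so a dye effect and a difference between the cells cannot be told apart.

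The pore is a set of stacked rings. The Y complex forms the outer rings on both faces, the inner ring holds the channel open, and nucleoporins rich in phenylalanine-glycine (FG) repeats fill it. Filaments reach into the cytoplasm, a basket reaches into the nucleus, and transmembrane nucleoporins anchor the whole in the envelope. Cargo crosses with receptors of the importin beta family, some of which bind importin alpha as an adaptor, and the small GTPase Ran, charged in the nucleus by Rcc1 and discharged in the cytoplasm by Rangap1, sets the direction. Several Y complex proteins also sit on kinetochores in mitosis, and a change of importin alpha subtype is known from mouse ES cells that turn into neurons.

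All values below are log2 ratios of ES cells over MEF from the brightest probe of a gene, so that 1 is a 2-fold higher level in ES cells; the error is the SD over n = 3 arrays. A gene was called when its limma adjusted p (Benjamini-Hochberg, over all 19681 genes) was under 0.05 and the ratio was at least 2-fold. Each of the 57 genes gave a signal well above background with either dye on 3 of 3 arrays, and none was saturated. As whole RNA was measured, fewer cells with a transcript and less of it per cell cannot be told apart.

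Sequence around the transcription start was looked at for genes called higher and for genes not called. RefSeq promoter windows of build GRCm38.p6, 250 bases before to 50 bases after a start, were found for 44 of the 57 genes. The windows shown are those of Nup210, the gene with the highest ratio, and of 4 of the genes grouped here as Y complex. Also shown are those of importin alpha Kpna2 and its relative Kpna4, whose ratios differ, and of Ipo13, which has the lowest ratio. Capitals mark matches, on either strand, to the CCAAT box (CCAAT), the GC box (GGGCGG), the ETS core (CCGGAAG), the E-box (CACGTG), E2F sites (TTTCCCGC or TTTGGCGC), the NRF1 site (GCGCA followed directly by TGCGC), the CRE (TGACGTCA) and the YY1 core (AAGATGGCG); matches to different motifs may overlap.
Nup210: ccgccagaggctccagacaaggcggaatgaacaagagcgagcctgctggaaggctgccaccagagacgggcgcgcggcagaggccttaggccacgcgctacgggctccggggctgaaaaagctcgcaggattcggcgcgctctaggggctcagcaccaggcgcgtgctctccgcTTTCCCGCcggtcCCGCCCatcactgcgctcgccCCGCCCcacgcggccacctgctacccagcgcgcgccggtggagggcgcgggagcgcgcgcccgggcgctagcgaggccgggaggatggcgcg
Nup107: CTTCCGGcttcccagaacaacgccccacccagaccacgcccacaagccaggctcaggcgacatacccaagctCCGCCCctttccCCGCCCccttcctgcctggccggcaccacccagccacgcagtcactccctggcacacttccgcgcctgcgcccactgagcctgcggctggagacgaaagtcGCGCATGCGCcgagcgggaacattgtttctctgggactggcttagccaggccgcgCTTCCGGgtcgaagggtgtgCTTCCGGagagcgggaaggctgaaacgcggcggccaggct
Nup133: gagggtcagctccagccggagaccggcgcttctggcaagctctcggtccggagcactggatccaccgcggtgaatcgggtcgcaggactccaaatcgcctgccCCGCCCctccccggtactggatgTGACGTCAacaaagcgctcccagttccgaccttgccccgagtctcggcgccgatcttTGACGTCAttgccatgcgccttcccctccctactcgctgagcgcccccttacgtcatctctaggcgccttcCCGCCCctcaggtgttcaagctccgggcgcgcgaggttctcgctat
Nup160: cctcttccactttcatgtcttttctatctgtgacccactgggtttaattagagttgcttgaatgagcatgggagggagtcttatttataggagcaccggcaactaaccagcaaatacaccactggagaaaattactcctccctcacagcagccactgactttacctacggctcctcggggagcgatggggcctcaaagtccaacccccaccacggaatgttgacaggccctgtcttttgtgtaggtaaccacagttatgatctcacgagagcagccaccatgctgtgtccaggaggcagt
Nup37: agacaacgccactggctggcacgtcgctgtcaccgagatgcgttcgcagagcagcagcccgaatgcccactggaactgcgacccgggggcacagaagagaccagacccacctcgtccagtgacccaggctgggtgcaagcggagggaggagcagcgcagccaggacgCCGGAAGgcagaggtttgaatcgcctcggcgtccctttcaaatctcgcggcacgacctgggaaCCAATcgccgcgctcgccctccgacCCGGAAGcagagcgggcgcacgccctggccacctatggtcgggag
Kpna2: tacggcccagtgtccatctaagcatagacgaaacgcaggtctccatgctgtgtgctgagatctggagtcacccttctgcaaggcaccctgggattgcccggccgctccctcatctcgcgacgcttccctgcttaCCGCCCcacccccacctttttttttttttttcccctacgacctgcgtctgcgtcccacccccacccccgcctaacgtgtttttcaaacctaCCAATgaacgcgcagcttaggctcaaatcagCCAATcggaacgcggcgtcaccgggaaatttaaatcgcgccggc
Kpna4: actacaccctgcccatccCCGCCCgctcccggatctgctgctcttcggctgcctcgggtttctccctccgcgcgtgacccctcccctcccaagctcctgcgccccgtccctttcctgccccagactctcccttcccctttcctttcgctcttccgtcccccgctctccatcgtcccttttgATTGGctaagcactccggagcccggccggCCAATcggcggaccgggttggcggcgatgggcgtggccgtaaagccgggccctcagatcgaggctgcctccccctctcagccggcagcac
Ipo13: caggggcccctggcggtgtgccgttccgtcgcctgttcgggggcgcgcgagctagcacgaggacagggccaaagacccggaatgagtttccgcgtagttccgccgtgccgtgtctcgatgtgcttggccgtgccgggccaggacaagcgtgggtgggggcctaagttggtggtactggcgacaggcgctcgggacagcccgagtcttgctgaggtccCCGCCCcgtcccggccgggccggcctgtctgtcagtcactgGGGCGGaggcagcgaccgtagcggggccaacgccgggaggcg
Nup210 (chr6:91116777-91117076, minus strand) held 2 GC boxes and 1 E2F match. Nup107 (chr10:117792656-117792955, minus strand) held 3 ETS cores, 2 GC boxes and the NRF1 site. Nup133 (chr8:123949216-123949515, minus strand) held 2 CRE and 2 GC boxes. Nup160 (chr2:90676965-90677264, plus strand) held no match, and its GC content of 50.7% was below the median of tested genes. Nup37 (chr10:88146742-88147041, plus strand), shown for the first of its 2 overlapping windows, held 2 ETS cores and 1 CCAAT box. Kpna2 (chr11:106999476-106999775, minus strand) and Kpna4 (chr3:69127043-69127342, minus strand) each held 2 CCAAT boxes and 1 GC box, although their ratios were 1.76 and -0.069. Ipo13 (chr4:117914950-117915249, minus strand) held 2 GC boxes.

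Most matches were spread over genes with high and low ratios alike. The GC box was found in 33 of the 44 genes (75%), against 63.3% of the 12305 tested genes with a window and 38.2% of all 27025 genes in the table, and the CCAAT box in 20 (45.5%), against 42.6% of tested genes. The E-box was found in 9 of 44 genes (20.5%) against 11.1% of tested genes; 2 of the 21 genes called higher held it and 7 of the 23 not called did. The ETS core was found in 9 genes (20.5% against 17%), 6 of the 21 called higher and 3 of the 23 not called. The NRF1 site was found in 5 genes, Nup107, Xpo5, Nup62, Ran and Nup50 (11.4% against 1.93%). The YY1 core was found in 4, Nup205, Nup88, Nup188 and Nup50 (9.09% against 2.99%), and the CRE in 3, Nup133, Nup214 and Ranbp6 (6.82% against 3.25%). The E2F letters TTTCCCGC were found in 2 of the 44, Nup210 and Ranbp1 (4.55% against 2.12%), and TTTGGCGC in none, against 0.959% of tested genes. The median GC content of the windows was 64.2% in the 44 genes and 60% in tested genes, with 64% in genes called higher and 64.3% in those not called. A match is a description of these letters and not a bound site.

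Pore and transport genes were mostly higher in ES cells. Of the 57, 28 were called higher, where 20.3% of all tested genes were, and 0 were called lower, where 22.4% of all tested genes were. The 7 genes with ratios below 0 all had unadjusted p-values under 0.05 in limma but stayed within 2-fold. The median ratio was 0.94 (1.91-fold), beside -0.050 over all tested genes, and on the 3 arrays it was 0.95, 0.96 and 0.94. Without a fold minimum 56 of the 57 had an adjusted p under 0.05, but so did 95.4% of all tested genes; 49 of the 57 had one with a ratio above 0, against 45.9% of all tested genes. Replicate arrays differed little, with a median SD of 0.018 in these genes and 0.029 in all. The genes are therefore told apart here by fold and not by p-value. Just inside the 2-fold line were Nup88 (1.00), Xpo7 (1.02) and Aaas (1.04), and just outside it were Tnpo2 (0.94) and Tnpo3 (0.935). Near the lower 2-fold line, and also not called, were Ipo13 (-0.94) and Ipo4 (-0.91).

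**Figure D1:**
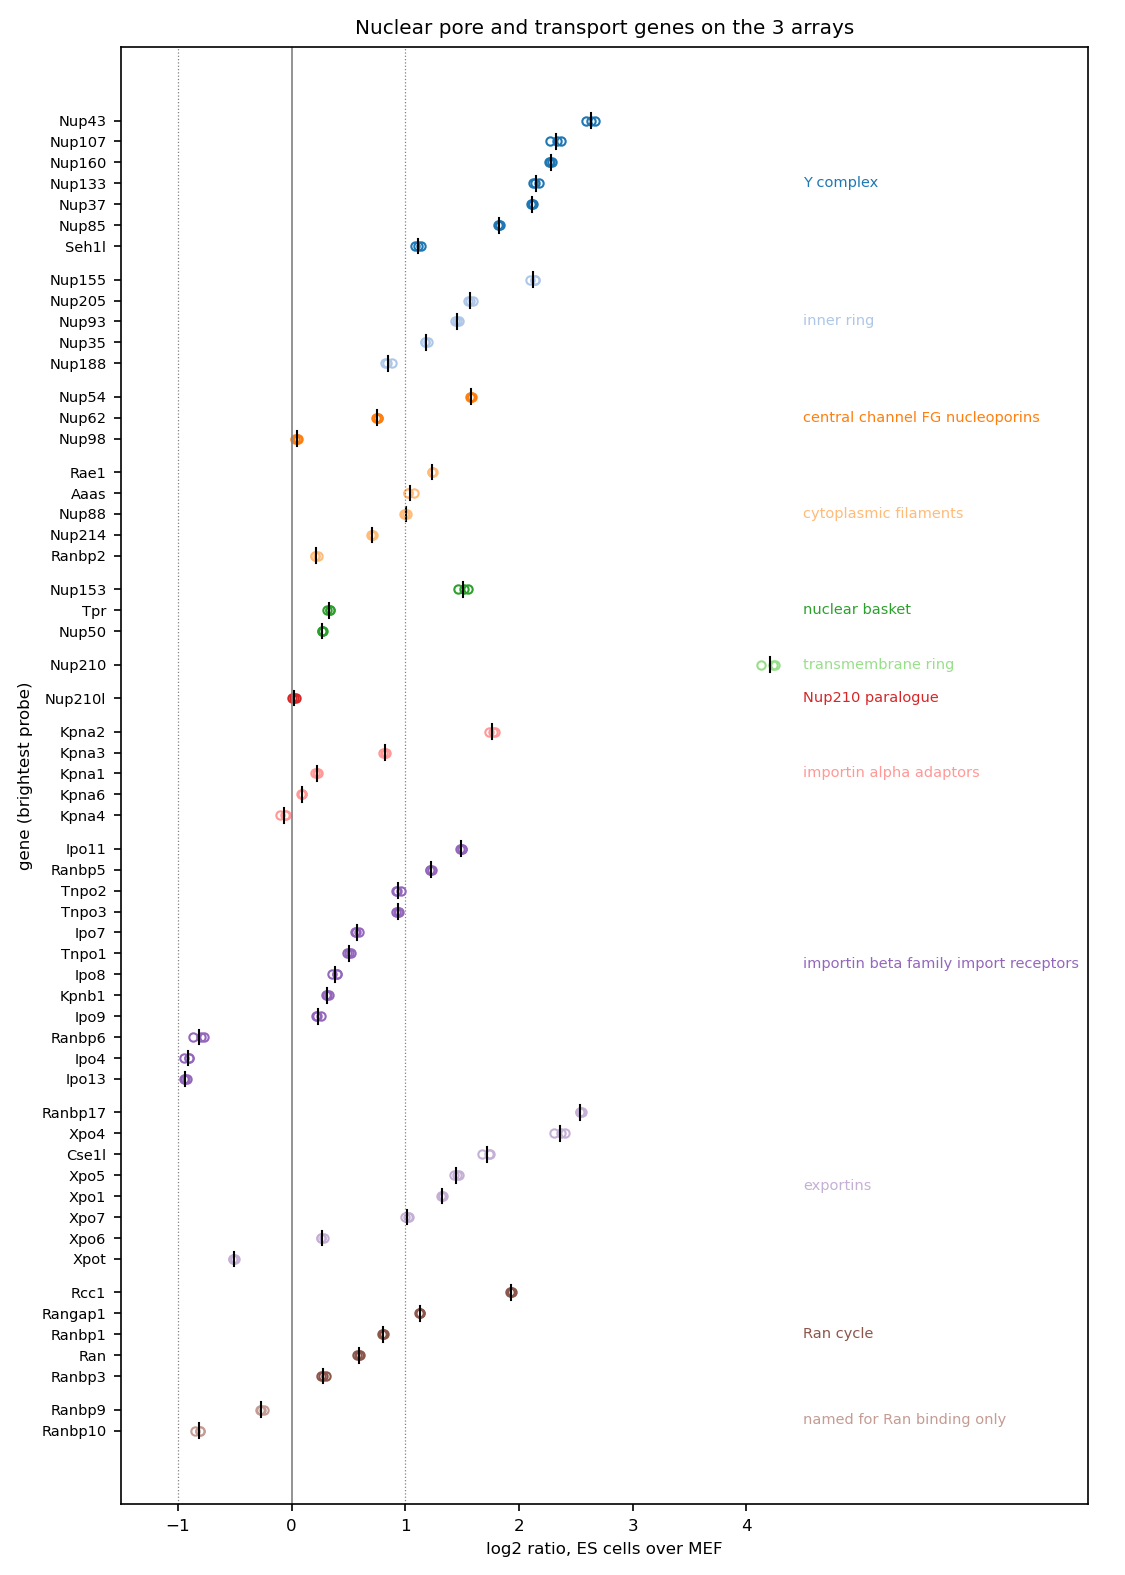
Log2 ratio of ES cells over MEF for each of the 57 genes, grouped by role; circles are the 3 arrays, black ticks their mean and dotted lines 2-fold either way. All 7 genes grouped as Y complex lie right of the 2-fold line. Nup210 lies farthest right at 4.20, and no gene lies left of the lower 2-fold line.

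**Figure D2:**
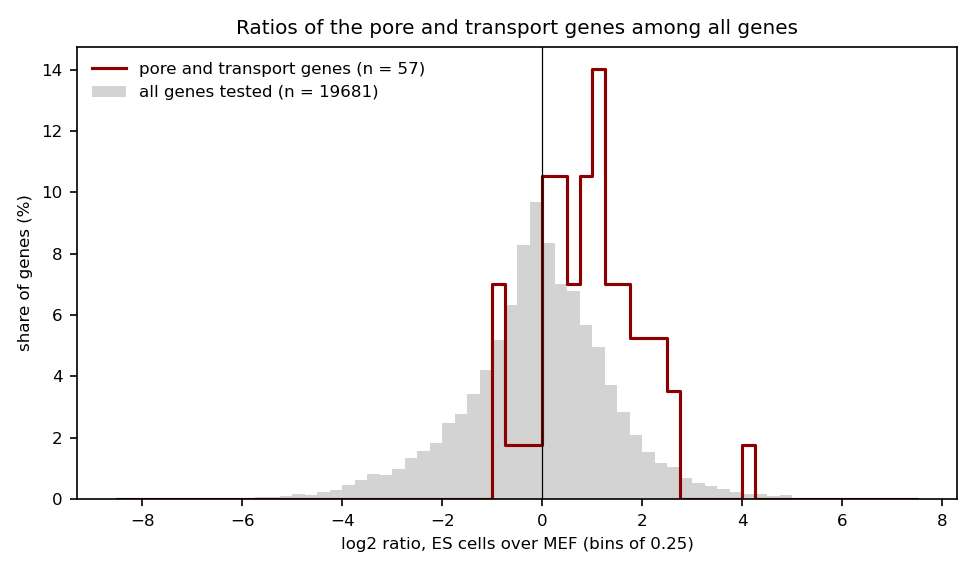
Share of genes, in percent, in each bin of the log2 ratio of ES cells over MEF, for the 57 pore and transport genes (red line) and for all 19681 tested genes (grey). The 57 genes have a median of 0.94 and none below -1, while all tested genes have a median of -0.050.

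Pore components held more of the calls than the other members did. Called higher were 17 of 25 pore components, with a median of 1.24, and 11 of 32 other members, with a median of 0.58. Of all tested genes 20.3% were called higher. The 25 include the testis paralogue Nup210l (0.020). The 32 are mostly transport factors but include Ranbp9 (-0.26) and Ranbp10 (-0.82), which are named for Ran binding only. None of Nup210l, Ranbp9 and Ranbp10 was called. This difference between the 2 classes was not tested.

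Nup210, a transmembrane nucleoporin known for its induction during muscle and neural differentiation, differed most. Its normalised signal was 15045, 14993 and 14854 in ES cell replicates 1, 2 and 3 and 862, 796 and 780 in the MEF channel of the same arrays. The 3 ratios were 4.13, 4.24 and 4.25, and no array came near the MEF level. That is a mean of 4.20 ± 0.068 (SD, n = 3), 18.4-fold higher in ES cells (limma adjusted p = 2.683e-07), above 99.43% of all tested genes. It was the largest ratio among the 57 genes, and it rests on 1 probe, on chromosome 6 at 91095476 to 91095535 of mouse build mm7, minus strand. Whether that and the other probes lie in coding sequence or in a UTR was not determined, as no annotation of build mm7 was used. Its paralogue Nup210l, a testis gene, had ratios of 0.0010, 0.018 and 0.041 (mean 0.020 ± 0.020, adjusted p = 0.24), near equal in both channels, with signals of only 157 to 174 in ES cells and 152 to 173 in MEF.

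All 7 genes grouped here as Y complex were called higher, where 20.3% of all tested genes were. Their median was 2.15, with a range of 1.11 to 2.63. Sec13, a subunit listed under another name, was not called higher. Nup98, whose transcript also encodes a Y complex subunit, was grouped with the FG nucleoporins. It was not called either, at 0.045 by its brightest probe. Nup43, a beta-propeller subunit, had ratios of 2.59, 2.67 and 2.63 on the 3 arrays, a mean of 2.63 ± 0.040 or 6.19-fold (adjusted p = 2.908e-07). Nup107 had 2.33, 2.37 and 2.27, a mean of 2.32 ± 0.050. Nup160, which forms an arm of the Y, had 2.27, 2.27 and 2.29. Nup133, at the end of its stem and known to be needed for ES cells to differentiate properly, had 2.12, 2.14 and 2.18. By their brightest probes these 4 genes were at least 4-fold higher in ES cells on every array, and the arrays of Nup107 overlapped those of Nup160. The second probe of Nup43 gave 1.93 and the other probes of Nup160 gave 1.96 and 1.72, all under 4-fold. Nup37 (2.11 ± 0.010), also at least 4-fold higher on every array, and Nup85 (1.83 ± 0.0092) followed.

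Seh1l, a small propeller subunit shared with a regulator of the mTOR pathway, was lowest of the 7 at 1.14, 1.11 and 1.09 by its brightest probe. Its other probes gave 2.10 and 2.14, near the rest of the complex. Sec13, shared between the Y complex and the COPII coat of secretory vesicles, is listed on the array as Sec13l1. Its brightest probe gave -0.89, -0.90 and -0.87 (mean -0.89 ± 0.013, not called) and a second probe gave -0.64. Its ratio was thus below 0 on each array while those of the 7 genes grouped as Y complex were above 1.

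In the inner ring, 4 of 5 genes were called higher, where 20.3% of all tested genes were, with a median of 1.45. Nup155, which anchors the ring to the membrane, had 2.15, 2.14 and 2.10 by its brightest probe (mean 2.13 ± 0.026), but its other probes gave 1.30 and 0.38. Nup205 had a mean of 1.57 ± 0.020, Nup93, the scaffold onto which the others are built, 1.45 ± 0.021, and Nup35 1.18 ± 0.014. Nup188, the partner of Nup93 in place of Nup205, was below 2-fold on each array at 0.84, 0.89 and 0.82 by its brightest probe. Its other probes gave 0.27 and 0.27. It was called with the scanner software's processed signals (1.03) and with median centring (1.08).

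FG nucleoporins of the channel were less uniform. Nup54 had 1.58, 1.56 and 1.59 (1.58 ± 0.012) and was called higher, whereas its channel partner Nup62 stayed at 0.76 ± 0.011. Nup98, whose transcript also encodes a Y complex subunit, had 0.059, 0.026 and 0.050 by its brightest probe, which the array's annotation places on an unplaced part of chromosome 7; its other probes gave 0.43, -0.17 and 0.67. Not one of the Nup98 probes reached 2-fold.

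Of the cytoplasmic filament genes 3 of 5 were called higher, with a median of 1.00, and of the basket genes 1 of 3, with a median of 0.33. Of all tested genes 20.3% were called higher, and groups this small are hard to set against that share. Rae1, an mRNA export factor that pairs with Nup98, had 1.23, 1.24 and 1.24 (1.24 ± 0.0048), and Aaas (1.04 ± 0.033) and Nup88 (1.00 ± 0.014) passed the line narrowly; with the mean of all probes in place of the brightest, none of these 3 was called (0.92, 0.97 and 0.99). The second probes of Rae1 (0.59) and Aaas (0.90) were not well above background in MEF, so those ratios are bounds. Without replicate 3, Nup88 was not called at 0.99. Ranbp2, the large filament protein that binds Ran and Rangap1, was lowest at 0.24, 0.20 and 0.21. Nup214, the partner of Nup88, had a mean of 0.71 by its brightest probe but -0.49 and -0.36 by the others, so its sign depended on the probe. In the basket, Nup153, which joins it to the pore, had 1.46, 1.52 and 1.55 (1.51 ± 0.044) and was called higher. Tpr, which builds the basket fibres, had 0.33 ± 0.014, and Nup50, which helps to release cargo, had 0.27, 0.27 and 0.26.

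Among the importin alpha adaptors, which read the classical nuclear localisation signal, Kpna2 stood apart. Its signals were 119700, 113247 and 115933 in ES cells and 34680, 34055 and 34004 in MEF, ratios of 1.79, 1.73 and 1.77. The mean of 1.76 ± 0.027 had a 95% interval of 1.72 to 1.81 (adjusted p = 4.011e-07), and a second probe at another position of the gene gave 1.77. None of the other 4 was called, although Kpna3 was with median centring of the arrays in place of loess. The count of 1 in 5 called higher is near the 20.3% of all tested genes. Kpna3 had 0.81, 0.83 and 0.83, Kpna1 had 0.21, 0.22 and 0.23, and Kpna6 had 0.095, 0.089 and 0.080. Kpna4 lay just below 0 at -0.058, -0.098 and -0.050, and its sign turned to 0.060 with the scanner software's processed signals. The lowest array of Kpna2 was above the highest array of every other importin alpha gene. Kpna6 and Kpna4 each had tested probes on both sides of 0, with ratios of -0.33 and 0.088 for Kpna6 and of -0.15, -0.069 and 0.10 for Kpna4.

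Cse1l, the exportin that returns importin alpha to the cytoplasm, was also higher, with 1.75, 1.74 and 1.68 (1.72 ± 0.039, adjusted p = 6.706e-07) by its brightest probe and 1.79 by the other. Kpnb1, the importin beta that carries importin alpha and its cargo inward, had 0.33, 0.30 and 0.31 on the 3 arrays by its brightest probe and was not called. A second Kpnb1 probe gave 1.46, 1.46 and 1.42, so the result for this gene differed between probes on all 3 arrays.

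Exportins were called higher in 6 of 8 cases, where 20.3% of all tested genes were, with a median of 1.39. Ranbp17, a relative of exportin 7 best known from testis, had 2.55, 2.53 and 2.54 by its brightest probe (2.54 ± 0.0096), and 1.42 and 1.27 by the others, all at least 2-fold; the probe at 1.27 was not well above background in MEF, so its ratio is a bound. Xpo4, which exports a translation factor and also brings Sox proteins into the nucleus, had 2.31, 2.40 and 2.37 (2.36 ± 0.047, adjusted p = 4.387e-07) and 1.74 by its second probe. Xpo1, the receptor of leucine-rich export signals and the most general exportin, had 1.32, 1.32 and 1.33 (1.32 ± 0.0067). Xpo5, which exports microRNA precursors, had 1.45 ± 0.022 by its brightest probe but 1.09, 0.93 (a probe not well above background in MEF) and 0.073 by the others, and it was not called with the mean of its probes (0.89). Xpo7 passed the line narrowly at 1.02 ± 0.016, and Xpo6, which exports actin, did not at 0.27 ± 0.018. Xpot, the tRNA exportin, went the other way on each array at -0.51, -0.51 and -0.50, within 2-fold.

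By their brightest probes, import receptors of the importin beta family were mostly within 2-fold. Of the 12, 2 were called higher, with a median of 0.44 and a range of -0.94 to 1.49. That count is near the 20.3% of all tested genes called higher, and it was 4 of 12 with the processed signals or with median centring, which add Tnpo2 and Tnpo3. Ipo11 had 1.483, 1.498 and 1.496 (1.49 ± 0.0083), and its other probes were also at least 2-fold higher. Ranbp5 (importin 5, an importer of ribosomal proteins and histones) had 1.23 ± 0.0087 by its brightest probe and 0.84, under 2-fold, by its other tested probe. Ipo7, which works on similar cargo, had 0.57 by its brightest probe and 1.91, 1.08 and 0.57 by the others; it was called with their mean (1.03). Tnpo1, the importer of many RNA-binding proteins, had 0.50 ± 0.018. Tnpo3, the importer of SR splicing factors, had 0.935 ± 0.014 by its brightest probe and 1.13, 1.18 and 0.53 by its other tested probes. Ipo8 had 0.38 by its brightest probe and 1.03 by the other.

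Ratios below 0 were also found in this family, among them the 2 lowest of the 57 genes, those of Ipo13 and Ipo4. Ipo13, a receptor that carries cargo both ways, had -0.94, -0.94 and -0.92 (-0.94 ± 0.010, adjusted p = 9.367e-07). Ipo4, another importer of histones and ribosomal proteins, had -0.90, -0.90 and -0.94. Ranbp6, a relative of importin 5, had -0.77, -0.79 and -0.87. For each of these 3 genes all 3 arrays were below 0 and none reached 2-fold.

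In the Ran cycle, the enzymes at both ends were called higher and the GTPase itself was not. Of the 5 genes in this group 2 were called higher, where 20.3% of all tested genes were. Rcc1, the chromatin-bound exchange factor, had 1.93, 1.94 and 1.92 (1.93 ± 0.011, adjusted p = 2.186e-07). Rangap1, the activator of GTP hydrolysis, had 1.12, 1.12 and 1.13, but it was not called with the mean of its probes (0.93). Ran had 0.58, 0.59 and 0.60 (0.59 ± 0.012), and Ranbp1, which assists Rangap1, had 0.80 ± 0.0077. Near-identical copies of Ran exist in the genome, so its array value is uncertain. Ranbp3, a cofactor of Xpo1, was lowest at 0.28, 0.30 and 0.26. Ranbp9 and Ranbp10, which share the name but belong to a ubiquitin ligase, had -0.28, -0.24 and -0.27 and -0.81, -0.85 and -0.80; a second Ranbp10 probe gave 1.21 and 1.30 on replicates 2 and 3 (its spot on replicate 1 was left out as an outlier), so the sign of Ranbp10 depended on the probe.

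Probes of a gene differed much more than arrays did. Of the 57 genes, 38 had more than 1 tested probe, and the median distance between the highest and lowest of them was 0.48, against a median SD between arrays of 0.018. A distance between extremes and an SD are unlike measures, and the offset shrinks the ratios of dim probes. The part of the offset in these distances was not tested. In 10 of the 38 every tested probe was at least 2-fold higher: Cse1l, Ipo11, Kpna2, Nup160, Nup205, Nup43, Nup54, Ranbp17, Seh1l and Xpo4. The distance exceeded 1 in 8 genes, Ranbp10, Nup155, Xpo5, Ipo7, Ranbp17, Nup214, Kpnb1 and Seh1l, and the sign differed in 5, Ranbp10, Nup214, Nup98, Kpna6 and Kpna4. Of the 118 tested probes of the 57 genes, 56 were at least 2-fold higher and 0 at least 2-fold lower. Of the 28 genes called higher, 9 had only 1 tested probe, Nup210, Nup107, Nup133, Nup37, Nup85, Nup93, Nup35, Rcc1 and Xpo7, and 9 others had a tested probe under 2-fold.

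**Figure D3:**
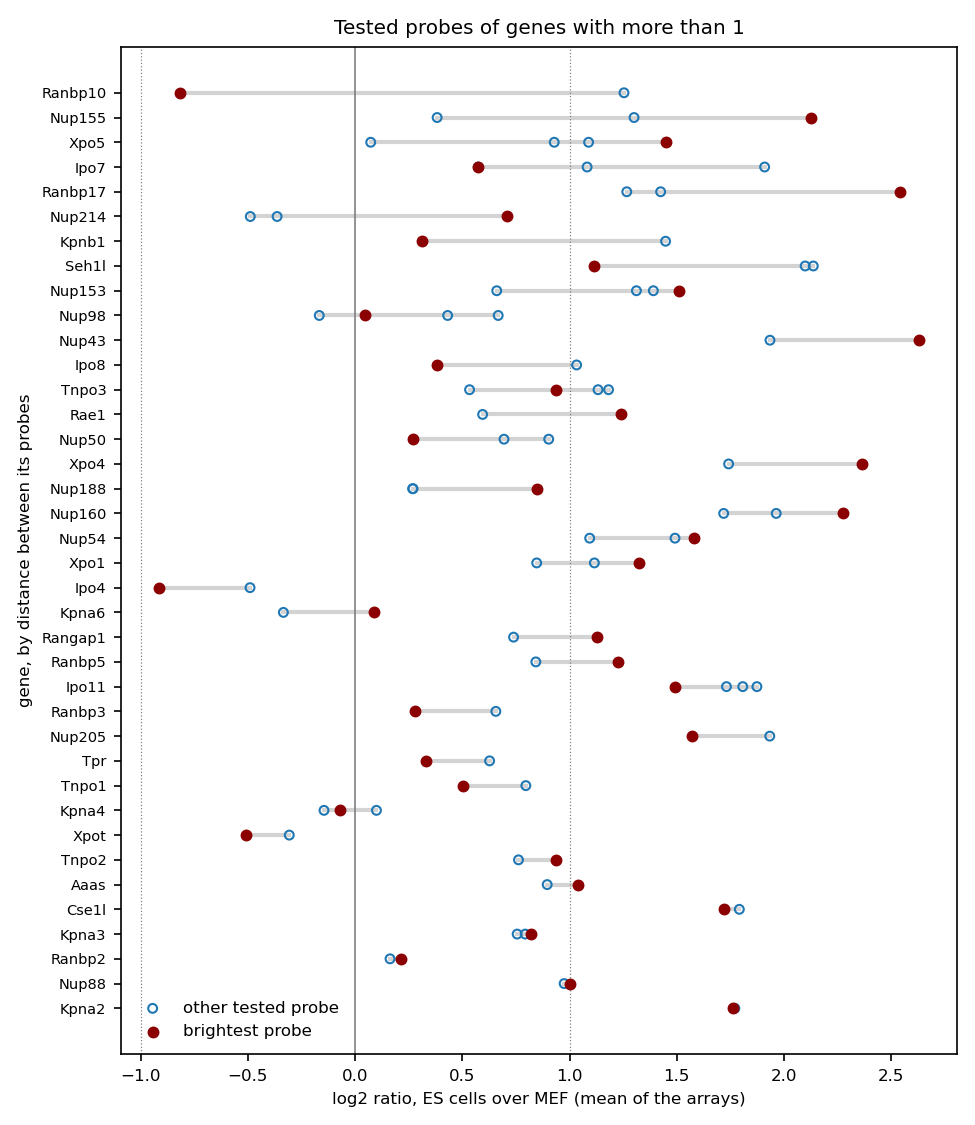
Log2 ratio of ES cells over MEF, mean of the arrays, for every tested probe of the 38 genes with more than 1; filled circles are the brightest probe, open circles the others, and dotted lines 2-fold either way. Genes are ordered by the distance between their probes, from Ranbp10 with -0.82 and 1.25 at the top to Kpna2 with 1.76 and 1.77 at the bottom.

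Genes of the same machinery that the names do not catch were also looked at. Of 12 listed pore and transport genes, 8 were tested, with a median of 0.89. Of these 3 were called higher and 0 lower, where 20.3% and 22.4% of all tested genes were. The 3 were Ndc1, a transmembrane nucleoporin listed as Tmem48 (1.77, 1.77 and 1.76), Ahctf1, which starts pore assembly on chromatin (1.46 ± 0.013), and Nupl2, a filament component (1.16 ± 0.020 by its brightest probe, but -0.12 by the other, so its sign depended on the probe). Pom121, the other transmembrane nucleoporin beside Ndc1 and Nup210, had 0.56 ± 0.0053, and Nutf2, which imports Ran, had 0.86 ± 0.0068. Of 18 listed mRNA export genes, 17 were tested, with a median of 0.89. Of these 6 were called higher and 0 lower, beside the same shares of all tested genes. The highest were Ddx19b, a helicase of the cytoplasmic pore face (2.80 ± 0.013 by its brightest probe and 0.86 by the other), and Mcm3ap, the scaffold of the TREX-2 complex (1.89 ± 0.010), and the lowest called were Nxt1 (1.177, and 0.98 by its other probe) and Thoc6 (1.098). Ddx19a, a close paralogue of Ddx19b, had 0.75, and the values of both are uncertain because probes may not tell the copies apart.

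**Figure D4:**
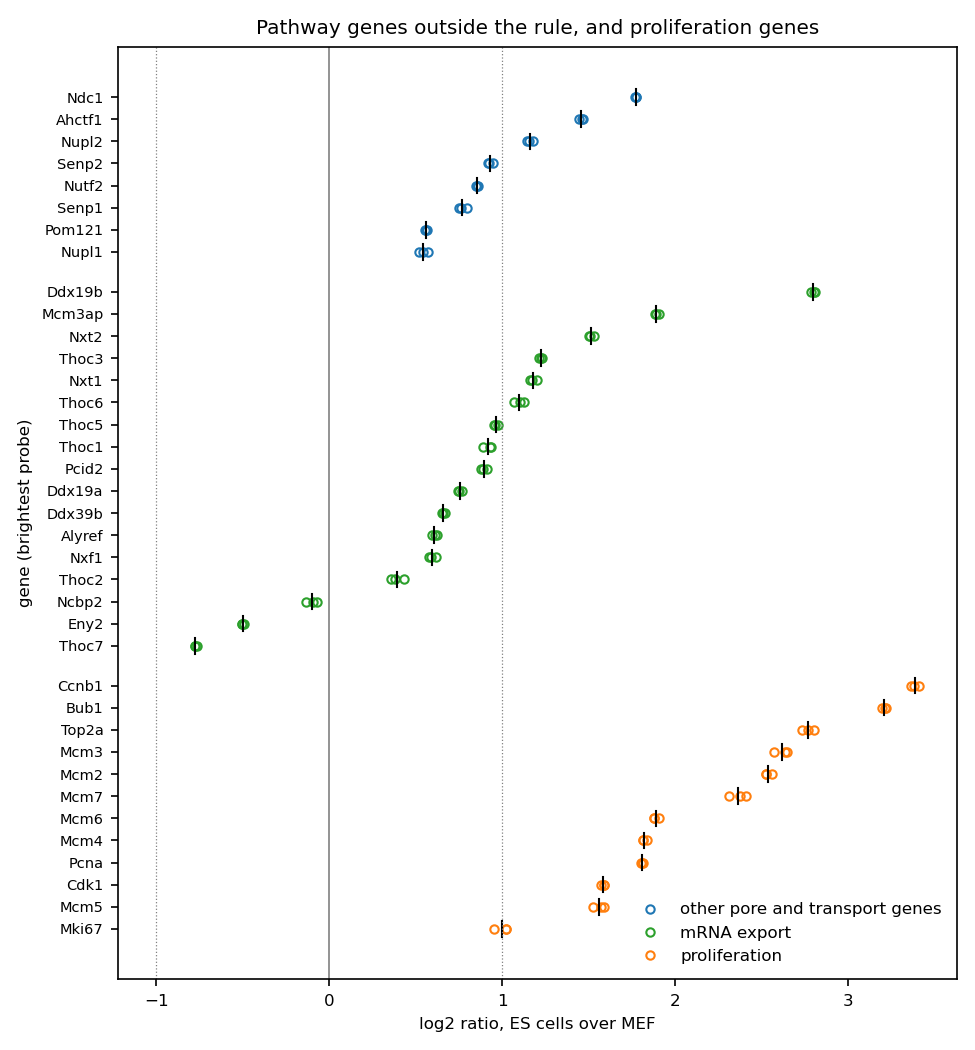
Log2 ratio of ES cells over MEF for pore and transport genes outside the name rule, for mRNA export genes and for proliferation genes; circles are the 3 arrays, black ticks their mean and dotted lines 2-fold either way. Proliferation genes have the highest median of these lists, 2.13, and run from Mki67 at 1.00 to Ccnb1 at 3.38. The mRNA export genes overlap them, with Ddx19b at 2.80, and Thoc7 has the lowest ratio at -0.77.

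Genes of other kinds were looked at on the same arrays. Of 12 proliferation genes, 11 were called higher in ES cells, where 20.3% of all tested genes were, and the median of the 12 was 2.13. The called genes ran from Ccnb1 (3.38) and Bub1 (3.21) down to Cdk1 (1.58, and 0.28 by its other probe) and Mcm5 (1.56). Mki67 at 1.00 by its brightest probe just missed the fold, and its other probe gave 1.205. The part of proliferation genes in the ratios of the pore genes was not tested. The labels held for the marker genes: 6 of 6 tested ES cell markers were called higher (3.52 to 6.33) and 7 of 7 fibroblast markers lower (-8.10 to -2.52). Macrophage markers were also lower in ES cells, 6 of 6, from Lyz2 at -6.18 to Cd68 at -2.73, so the MEF RNA held transcripts of macrophage genes, and their part was not tested either. Over the arrays the median gene signal ranged from 398 to 421 for ES cells and from 381 to 391 for MEF, and the log2 ratios of the 3 arrays correlated at 0.9977 to 0.9981 across genes, which are not independent replicates.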

How the data were processed

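Mouse ES cell RNA (Cy3) and MEF RNA (Cy5) were compared on 3 arrays of 1 slide, with no dye swap. The design text names the Cy5 sample differently in 1 place; groups come from the sample labels. The authors scanned with Agilent Feature Extraction 9.5.3.1, per the file headers, and probe coordinates use build mm7. The deposited mean and background intensities are not background-subtracted, while the deposited processed intensities are, and are dye-normalized. The deposited log10 ratio (red over green) was not used. The authors' deposited log2 value table equals the log2 ratio of processed signals, green over red, is not centred (column medians 0.213, 0.0859 and -0.143), and served as an alternative.

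Signals were corrected with normexp (offset 50) and loess within arrays (control spots at weight 0) in limma 3.58.1 under R 4.3.3, and the sign was set so that ES cells over MEF is positive where ES cells are higher. The offset shrinks ratios of dim genes. Outlier spots were left out (117 to 144 gene spots per array) and spots of a probe averaged. Probes entered the test when all 3 arrays had them well above background with Cy3 or all 3 had them so with Cy5 (29500 of 41174), and the brightest kept probe stood for its gene name. The mean ratio was tested with lmFit and eBayes, adjusted by Benjamini-Hochberg over 19681 genes. On simulated data for ES cells over MEF (29502 probes), 50 of 50 probes at a log2 ratio of 3 and 45 of 50 at 1.5 were called, and 50 of 50 at -3 and 44 of 50 at -1.5. None of 29302 unchanged probes was. These were simulated at the same level with both dyes apart from noise, so that count cannot measure false calls from a dye effect. The number of arrays limits the precision.

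Every gene of the name rule could be named; values per array are given for the 8 highest and 8 lowest ratios, the extremes of each role group, the importin alpha genes and the main Ran cycle genes, and of other lists the 2 highest and 2 lowest called genes. Pom121, Nutf2, Ddx19a and Sec13 were named after their values were seen. The members and lists were chosen with earlier results of these data known, and 2 further genes of the pore and transport list outside the rule are not reported here and are left out of its counts. Alternatives covered the signal, background correction, normalization, filter, probe rule, gene names, outlier spots, threshold, value source and each replicate left out.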

Additional observations from a re-analysis of the deposited data

How the results depend on the processing

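The count of 28 genes called higher was 31 with the scanner software's processed signals or the authors' value table, 32 with median centring, 24 with the mean of all probes (23 shared with the main 28), 35 with limma treat against 1.5-fold and 49 with no fold minimum. The share of all tested genes called higher, 20.3% in the main setting, moved as well, to 26.3% with processed signals or the value table, 24.7% with median centring, 19.6% with the mean of all probes, 28.9% with treat and 45.9% with no fold minimum. No gene of the name rule was called lower except 4 under treat and 7 with no fold minimum. Of all 19681 tested genes, 5941 were called lower under treat and 9742 with no fold minimum. The median ratio of 0.94 was 1.05 with processed signals and with the value table, which hold the same ratios, 0.97 with normexp offset 0, 1.21 with median centring, which moves the median of all genes from -0.050 to 0.11, and 0.92 with the mean of all probes. Leaving out each replicate in turn gave 27 to 28 called higher, 0 called lower and medians of 0.942 to 0.944. Signs turned for Kpna4 (0.060 with processed signals and with the value table, 0.20 with median centring), Ranbp9 (0.000247 with median centring) and, with the mean of all probes, Kpna6 (-0.12) and Nup214 (-0.048). Of the single-gene values, 718 kept direction and call, 11 passed the threshold newly, 6 no longer passed it and 6 turned sign; 23 genes were called higher under all 13 settings with the same threshold. Treating the gene names by current symbol, the filters, the outlier spots and no background subtraction left 28 called. The test already pairs the RNAs of each array through their ratio, so no further replicate block could be fitted. Dye and cell type cannot be told apart in these arrays.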
